A study of Homo sapiens with 20 samples.

Results

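The mitosis genes are 48 genes, taken by name from the 19593 genes in the tables, whose products carry a cell from the end of G2 through chromosome segregation and division. They fall into 4 groups by role: 18 cyclins, kinases and regulators of mitotic entry and exit, 12 kinetochore and spindle checkpoint genes, 10 genes of the spindle and chromosomes, and 8 genes of cytokinesis. Each gene was represented by the 3′ UTR of its transcript with the most reads over all libraries. For KIF11, KIF23 and ASPM the annotated 3′ UTR of that transcript lay in 11, 12 and 3 separate stretches of the genome. Whether these stretches are coding in other transcripts of the gene was not tested. All 48 were found and 47 had enough reads to be tested. The exception was SPC25, a subunit of the NDC80 complex, which had no T>C read in any library.

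The libraries came from MM1.S, an established human multiple myeloma cell line with the genotype label WT. The cells received 10 nM dCBP-30, a degrader of the histone acetyltransferases CBP and p300, or the vehicle DMSO, for 2, 6 or 24 h, with 3 libraries in each of the 6 groups. RNA made in the last 1 h before harvest was marked with 4-thiouridine (4sU) in all 18 of these libraries, and SLAM-seq reads the incorporated 4sU as T>C conversions, so that T>C reads report newly made RNA while total reads report the whole RNA pool. A further 2 libraries without 4sU gave the background of conversions.

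Mitotic genes are transcribed periodically, with a peak in G2 and mitosis. In resting and G1 cells the DREAM complex, built on the MuvB core, represses many of them, and B-MYB and FOXM1 join MuvB to activate them later in the cycle. The MuvB core contacts DNA at the cell cycle homology region, a short TTTGAA-like element close to the transcription start, and NF-Y binds CCAAT boxes upstream of it. At the end of mitosis the anaphase promoting complex, activated by CDC20, marks cyclin B and securin for destruction.

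The promoters of several members are shown, at the element that MuvB contacts, for genes whose T>C reads fell at 24 h (CDK1, CKS1B, BUB1B, KIF11, MKI67 and PRC1) and for genes that were not called (CCNB2, PLK1 and CDCA8). RefSeq promoters of 300 bases (250 before and 50 after the start, GRCh38.p14) were held for 39 of the 48 members, in 49 entries, and TTTGAA or its reverse complement TTCAAA was found on either strand in 33 of the 49 entries (67.3%), against 15.2% of 35116 promoters of the same length. The CCAAT box (CCAAT or ATTGG) was found in 38 of the 49 (77.6%) against 34.6% of all promoters, and both motifs in 28 (57.1%) against 5.9%. Where TTTGAA is followed by TTGG, as in the windows of CDCA8 and MKI67, the reversed CCAAT box shares its first base with the last base of TTTGAA. Each line below gives 30 bases of the gene's own strand, 5′ to 3′, with the motif in capitals.
CCNB2: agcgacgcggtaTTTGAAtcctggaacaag
PLK1: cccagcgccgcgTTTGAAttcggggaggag
CDCA8: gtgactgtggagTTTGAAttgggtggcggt
CDK1: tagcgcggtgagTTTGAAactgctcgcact
CKS1B: gcgggcggcgtgTTTGAAagcgaggccaaa
BUB1B: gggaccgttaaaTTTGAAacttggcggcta
KIF11: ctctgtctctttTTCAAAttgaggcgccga
MKI67: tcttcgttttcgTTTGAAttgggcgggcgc
PRC1: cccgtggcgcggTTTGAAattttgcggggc
These windows lie at chr15:59105105-59105134 (CCNB2, plus strand), chr16:23678848-23678877 (PLK1, plus), chr1:37692481-37692510 (CDCA8, plus), chr10:60778453-60778482 (CDK1, plus), chr1:154974639-154974668 (CKS1B, plus), chr15:40161034-40161063 (BUB1B, plus), chr10:92593090-92593119 (KIF11, plus), chr10:128126435-128126464 (MKI67, minus) and chr15:90994538-90994567 (PRC1, minus). Of the 46 matches in members' promoters, 27 began between 60 bases before and 20 bases after the start. The element was held by 14 of the 18 members with a promoter entry whose T>C reads fell at 24 h and by 15 of the 20 tested members that were not called, and a match is a stretch of letters, not a measured binding site.

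The labelled libraries held 12439665 to 18727385 reads on genes. T>C reads made up 5.99 to 6.13% of them with DMSO at 2 h and 5.43 to 5.69% with dCBP-30. The ranges were 6.24 to 6.59% (DMSO) and 4.71 to 5.28% (dCBP-30) at 6 h, and 8.15 to 8.62% and 5.92 to 6.86% at 24 h. Unlabelled cells gave 0.794 and 0.809%. All 9 plasma cell and myeloma markers examined reached a median level of 1 RPM in DMSO libraries. RPM is reads-per-million of the reads on genes, scaled by the TMM factor of the library. The summed level of these markers was 5937 to 7614 RPM in DMSO libraries and 525 to 5020 RPM with dCBP-30. By the median over DMSO libraries, none of the 4 B cell, 4 myeloid, 4 epithelial or 4 fibroblast markers reached 1 RPM, and 1 of 4 T cell markers, CD3E, did. In single DMSO libraries the summed level of these lists was at most 0.523 RPM for B cell, 0.939 for myeloid, 1.49 for epithelial, 2.12 for fibroblast and 7.58 for T cell markers, and with dCBP-30 at most 0.549, 1.23, 1.64, 5.03 and 16.6. Levels below are T>C or total RPM, both over the total reads on genes of the library times its TMM factor, with replicates 1, 2 and 3 in order. Libraries without 4sU had no TMM factor, and their levels are over the reads on genes alone. Statements of overlap between libraries hold on this RPM scale. Fold changes come from edgeR's quasi-likelihood test, scaled by total reads and the same TMM factors. These were 0.873 to 0.962 at 2 h and in DMSO but 1.11 to 1.14 and 1.29 to 1.32 with dCBP-30 at 6 and 24 h. The RPM values and the fitted folds at 24 h therefore both show a larger decrease than scaling by total reads alone would. A gene is called lower or higher when the Benjamini-Hochberg adjusted p over all genes is under 0.05 and the change is more than 2-fold. The share of all genes at an unadjusted p under 0.05 was not counted. Counts of members at that cut therefore have no background and are not results about the members.

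New RNA took a different part of the pool from member to member. The share of a member's reads that carried T>C had a median of 12.9% over all labelled DMSO libraries, against 10.4% for the 11061 genes with at least 100 such reads. It was highest in ANLN, which encodes anillin, a scaffold of the contractile ring, at 47%, and lowest in PTTG1, which encodes securin, at 4.12%, with CKS1B at 4.33% and CDC25B at 4.91%. Without 4sU the members' shares ran from 0 to 3.39% with a median of 0.63%, and in all 47 members the dCBP-30 share at 24 h was more than 2 times that background. For TTK, NDC80, HMMR, DLGAP5, KIF20A and KIF20B the background was 0 on few reads. Any T>C read passes there, so the comparison cannot decide for these genes.

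With dCBP-30 for 24 h newly made RNA fell for 24 of the 47 mitosis genes tested and rose for none, while 1 was lower at 2 h and 3 at 6 h. Of all genes tested, 31.2% were lower at 24 h, 7.14% at 2 h and 17.1% at 6 h. Summed over the members, T>C reads at 2 h were 390.0 ± 40.8 RPM in DMSO and 349 ± 13.0 with dCBP-30 (SD, n = 3). At 6 h the sums were 394 ± 15.4 RPM in DMSO and 333 ± 13.6 with dCBP-30, and at 24 h 434 ± 19.7 and 198 ± 8.22. The summed total reads were 4713 ± 247 RPM in DMSO and 4247 ± 341 with dCBP-30 at 2 h. They were 4453 ± 150 against 4336 ± 329 at 6 h, and 3930 ± 285 against 2181 ± 45.5 at 24 h. The treated and vehicle libraries overlapped in summed T>C reads at 2 h and in summed total reads at 2 and 6 h, and at 24 h every treated library was below every vehicle library in both. In bulk RNA, fewer cells in G2 and mitosis and less RNA in each such cell cannot be told apart, and since the labels name triplicates without separate cultures, the p-values measure the spread between libraries, which may be technical.

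**Figure D1:**
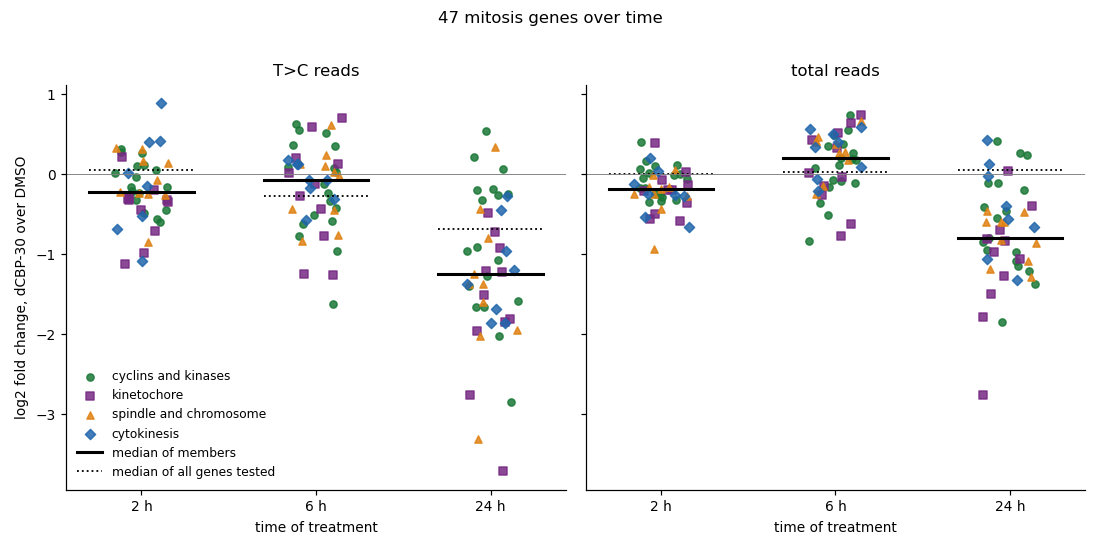
Log2 fold change of the 47 tested mitosis genes at 2, 6 and 24 h of dCBP-30 against DMSO, in T>C reads (left) and total reads (right). Each point is 1 gene with a marker for its group, the solid bar is the members' median and the dotted bar the median of all genes tested; the members' median at 24 h was -1.25 in T>C reads and -0.80 in total reads.

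At 2 h, 1 of the 47 members was called lower in T>C reads and none higher, against 7.14% and 1.66% of the 10083 genes tested. The members' median log2 fold change was -0.22, with 31 genes below 0, where the median of all genes was 0.05. The called gene was BUB1, a kinase of the spindle assembly checkpoint that recruits other checkpoint proteins to kinetochores. Its DMSO libraries at 2 h held 7.85, 3.17 and 4.33 T>C RPM and its dCBP-30 libraries 3.19, 1.78 and 2.13, so the highest treated library lay just above the lowest vehicle one, and the log2 fold change was -1.12 (SE 0.38, edgeR's quasi-likelihood test, adjusted p = 0.0469). BUB3, which carries BUB1 and BUB1B to kinetochores, was lower by less than 2-fold. Its levels of 26.6, 21.4 and 16.9 T>C RPM with DMSO were all above the 12.2, 13.3 and 14.2 with dCBP-30 (log2 fold change -0.70, SE 0.21, adjusted p = 0.0173 in the same edgeR fit). At an unadjusted p under 0.05 in that fit, 4 members were lower and 0 higher, and DESeq2 likewise called 1 lower and 0 higher. The BUB1 call at 2 h did not hold in most other fits: 10 of the 18 that left out 1 library, and 6 other settings, gave 0 calls.

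At 6 h, 3 members were called lower and none higher, against 17.1% and 2.36% of all genes tested, and the members' median was -0.07 where that of all genes was -0.27. At an unadjusted p under 0.05, edgeR had 10 members lower and 1, NUSAP1, higher, and DESeq2 called 3 lower and 0 higher. The gene with the largest decrease was CKS1B, which encodes a small binding partner of cyclin-dependent kinases that also helps to degrade the CDK inhibitor p27 and lies in a chromosome 1 region often gained in myeloma. CKS1B held 23.6, 30.03 and 24.4 T>C RPM with DMSO and 10.3, 9.82 and 5.15 with dCBP-30 at 6 h, so every treated library was below every vehicle library, with a log2 fold change of -1.62 (SE 0.22, edgeR adjusted p = 1.09e-08). At 2 h it had held 25.8, 27.7 and 24.6 T>C RPM against 13.3, 17.4 and 20.7, without overlap, but did not pass the threshold (-0.60, SE 0.21, edgeR adjusted p = 0.054).

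The other genes called at 6 h belong to the spindle checkpoint. MAD2L1, the checkpoint protein that binds and holds CDC20, had 8.28, 9.92 and 5.29 T>C RPM with DMSO and 3.41, 4.22 and 2.15 with dCBP-30, without overlap (-1.26, SE 0.33, edgeR adjusted p = 0.00228). BUB1 had 6.23, 5.90 and 4.82 against 2.75, 1.39 and 3.003, also without overlap (-1.25, SE 0.38, edgeR adjusted p = 0.00954). BUB3 had 17.8, 19.8 and 23.7 against 8.80, 13.3 and 13.7 and was again lower by less than 2-fold (-0.78, edgeR adjusted p = 0.00336). Of these genes, CKS1B was called at 6 h under all 5 library scalings tried, and BUB1 and MAD2L1 under 2 of 5.

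At 24 h, 24 of the 47 members (51.1%) were called lower and none higher in T>C reads, against 31.2% and 2.18% of the 10083 genes tested. The members' median log2 fold change was -1.25, with 43 genes below 0 and 4 above, where the median of all genes was -0.69. By group, 8 of 18 cyclins and kinases were called lower (median -0.93), 6 of 11 kinetochore genes (-1.51), 6 of 10 spindle and chromosome genes (-1.37) and 4 of 8 cytokinesis genes (-1.29), and every tested kinetochore and cytokinesis gene was below 0. Conversions per T>C read in members averaged 3.05 ± 0.0194 in DMSO libraries and 2.59 ± 0.0592 in dCBP-30 libraries at 24 h (SD, n = 3), against 2.48 and 1.47 over all genes, and the part of this difference in labelling in the result was not tested. At an unadjusted p under 0.05, edgeR had 31 members lower and 0 higher, without a background at that cut. DESeq2 with size factors from total reads called 24 lower and 0 higher, where 31.9% and 2.70% of all genes were.

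**Figure D2:**
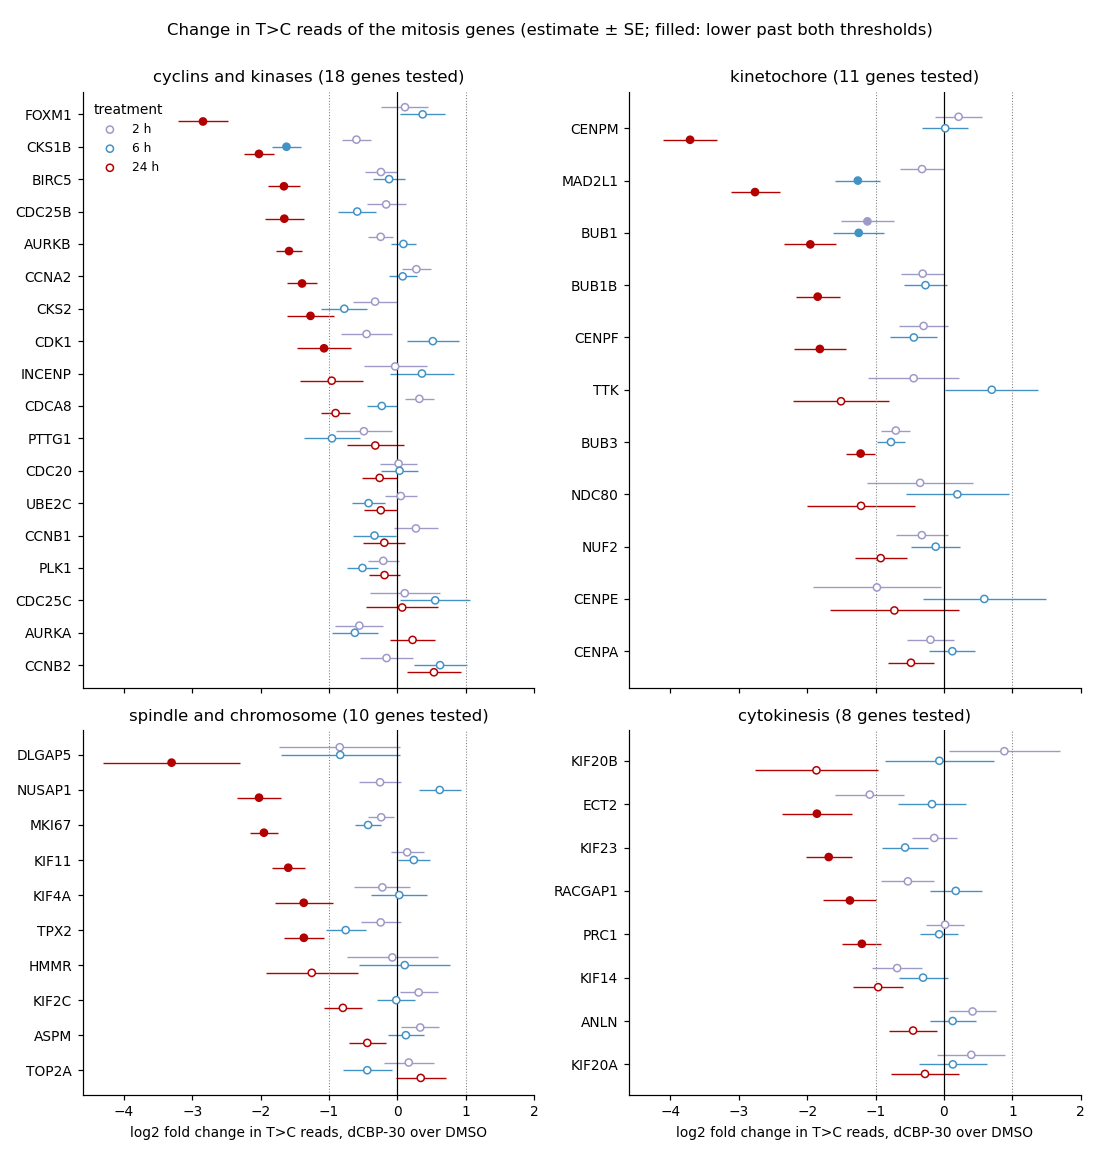
Log2 fold change in T>C reads of each tested mitosis gene, dCBP-30 over DMSO, by group and ordered by the change at 24 h; points are estimates from edgeR, bars are SE, and filled points passed both thresholds on the lower side. Filled points at 24 h (24 genes) span all 4 groups, while BUB1 is the only filled point at 2 h and CKS1B, BUB1 and MAD2L1 the only ones at 6 h.

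Among the regulators of entry and exit, FOXM1, the transcription factor of G2 and M genes, had the largest decrease. It held 7.97, 9.004 and 5.80 T>C RPM with DMSO at 24 h and 0.821, 1.10 and 1.23 with dCBP-30, a log2 fold change of -2.84 (SE 0.37, edgeR adjusted p = 4.44e-09). At 6 h its levels had overlapped, with 5.09, 7.66 and 6.13 T>C RPM in treated libraries and 4.46, 5.83 and 4.34 in the vehicle, and at 24 h they were far apart. The measured 3′ UTR of FOXM1, at chr12:2857683-2858640 on the minus strand of hg38, overlaps 649 bases of ITFG2 on the opposite strand, and whether the counting used strand is not given in the sources used here.

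CKS1B, measured in its 3′ UTR at chr1:154978775-154979251, held 22.4, 28.3 and 27.1 T>C RPM with DMSO at 24 h and 6.73, 6.04 and 6.28 with dCBP-30 (log2 fold change -2.03, SE 0.22, edgeR adjusted p = 2.00e-11). The libraries without 4sU held 5.26 and 7.87 T>C RPM of this gene over reads alone. Without a TMM factor these are not on the scale of the treated levels. The share of CKS1B reads with T>C, which needs no scaling, was 4.33% with dCBP-30 and 1.31% without 4sU. AURKB, the kinase of the chromosomal passenger complex, which corrects faulty attachments of kinetochores, fell from 38.0, 41.7 and 37.3 to 11.8, 11.2 and 16.0 T>C RPM (-1.59, SE 0.19, edgeR adjusted p = 2.11e-10). The libraries without 4sU held 6.37 and 5.86 T>C RPM of AURKB over reads alone, without a TMM factor and so not on the scale of the treated levels. Its share of T>C reads was 11.5% with dCBP-30 and 2.3% without 4sU. CDK1, the central kinase of mitosis, held 2.07, 5.31 and 4.57 T>C RPM with DMSO and 1.53, 2.42 and 1.72 with dCBP-30 (-1.07, SE 0.40, edgeR adjusted p = 0.025), and 1 treated library lay above the lowest vehicle library.

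The other genes of this group called lower were BIRC5, which encodes survivin of the passenger complex (-1.66), CDC25B, a phosphatase that activates CDK1 (-1.66), CCNA2, which encodes cyclin A2 (-1.40), and CKS2 (-1.27). The measured 3′ UTR of CCNA2 overlaps 250 bases of EXOSC9 on the opposite strand.

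Several of the best known mitotic regulators were not called. CCNB1, the cyclin that activates CDK1 at mitotic entry, held 10.3, 9.30 and 8.48 T>C RPM with DMSO at 24 h and 8.76, 8.74 and 7.08 with dCBP-30, overlapping levels (log2 fold change -0.19, SE 0.31, edgeR adjusted p = 0.664). CCNB2, the second B-type cyclin, held 2.14, 2.98 and 4.35 against 4.54, 2.20 and 6.92, also overlapping (0.53, SE 0.39, edgeR adjusted p = 0.296). PLK1, a kinase of centrosome maturation and mitotic entry, held 18.7, 26.9 and 17.98 against 19.6, 16.1 and 20.1 (-0.19, SE 0.22, edgeR adjusted p = 0.537), and its UTR overlaps 58 bases of ERN2 on the opposite strand.

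AURKA, the kinase of centrosomes and spindle poles, held 5.77, 7.63 and 4.21 T>C RPM against 7.61, 5.82 and 7.14 (0.22, SE 0.33, edgeR adjusted p = 0.646). CDC20 held 12.8, 9.42 and 11.6 against 11.1, 9.67 and 7.40 (-0.26, SE 0.26, edgeR adjusted p = 0.46). For each of these genes the levels of the treated and vehicle libraries overlapped, and the estimates do not show that the genes were unaffected. The remaining regulators not called were CDC25C (0.07), UBE2C (-0.24), PTTG1 (-0.32), CDCA8 (-0.91) and INCENP (-0.96), of which CDCA8, a passenger complex subunit, was below the adjusted p threshold but under 2-fold (edgeR adjusted p = 5.35e-04).

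**Figure D3:**
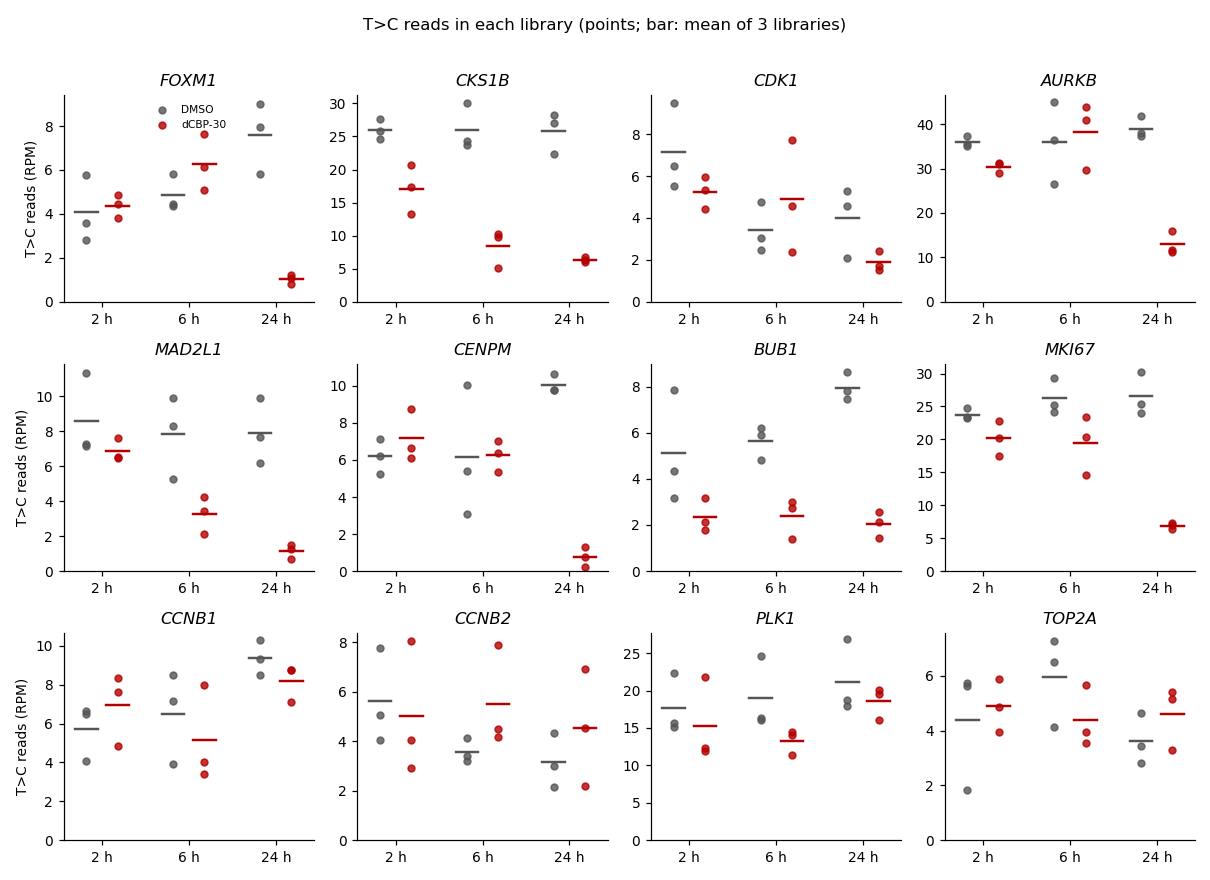
T>C RPM for 12 mitosis genes in each labelled library at 2, 6 and 24 h; points are libraries, bars the mean of 3, and each y axis starts at 0 on its own scale. CKS1B and MAD2L1 step down over the time points with dCBP-30, FOXM1, CENPM, AURKB and MKI67 are low at 24 h, and the points of CCNB1, CCNB2, PLK1 and TOP2A overlap between treatments at 24 h.

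Of the kinetochore genes, CENPM, a subunit of the constitutive centromere network, had the most negative estimate of the 47 members. It held 9.78, 9.78 and 10.7 T>C RPM with DMSO at 24 h and 0.219, 0.769 and 1.29 with dCBP-30 (log2 fold change -3.71, SE 0.40, edgeR adjusted p = 1.56e-11), whereas at 6 h the levels had been 10.1, 3.08 and 5.43 against 5.33, 7.05 and 6.38. The libraries without 4sU held 2.45 and 1.35 T>C RPM of CENPM over reads alone. Without a TMM factor these are not on the scale of the treated levels, which were also low. The estimate of CENPM was -4.33 without dCBP-30 replicate 3, and its share of T>C reads was 4.04% with dCBP-30 and 1.73% without 4sU. Its 3′ UTR lies at chr22:41938737-41939185.

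MAD2L1 held 6.15, 9.90 and 7.69 T>C RPM with DMSO at 24 h and 1.26, 0.714 and 1.502 with dCBP-30 (-2.76, SE 0.36, edgeR adjusted p = 3.35e-09). BUB1 held 7.84, 7.45 and 8.63 against 1.42, 2.58 and 2.15 (-1.95, SE 0.38, edgeR adjusted p = 2.28e-05), and BUB3 held 20.2, 22.4 and 24.8 against 9.58, 9.07 and 10.3 (-1.22, SE 0.21, edgeR adjusted p = 2.85e-06). All of these checkpoint genes had treated libraries below every vehicle library. BUB1B, which encodes the checkpoint kinase-like protein BUBR1, was lower too (-1.85), as was CENPF, a kinetochore protein of G2 and mitosis, with 5.25, 5.78 and 5.66 against 0.493, 1.81 and 2.41 (-1.82, SE 0.38, edgeR adjusted p = 6.62e-05).

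The remaining kinetochore genes were not called. CENPA, the histone H3 variant that marks centromeres, held 3.95, 4.77 and 6.16 T>C RPM with DMSO and 3.89, 4.01 and 2.74 with dCBP-30 (-0.48, SE 0.34, edgeR adjusted p = 0.273), with overlap. NUF2, a subunit of the NDC80 complex that holds microtubules, held 3.89, 4.35 and 3.12 against 1.92, 1.65 and 2.41 without overlap, at less than 2-fold in the fit (-0.93, SE 0.38, edgeR adjusted p = 0.0444). TTK, the kinase that starts checkpoint signalling, was at -1.51, NDC80 at -1.21 and the motor CENPE at -0.73, and none passed the threshold.

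Among spindle and chromosome genes, MKI67, which encodes the Ki-67 protein that coats mitotic chromosomes, held 30.3, 24.0 and 25.5 T>C RPM with DMSO at 24 h and 6.40, 7.25 and 6.92 with dCBP-30 (-1.95, SE 0.20, edgeR adjusted p = 3.64e-12). NUSAP1, a microtubule-binding protein of the spindle, held 16.4, 11.2 and 7.69 against 3.28, 3.08 and 2.31 (-2.02, SE 0.32, edgeR adjusted p = 4.14e-07), and its measured UTR shares 813 bases with another annotated gene on the same strand. DLGAP5, a spindle assembly factor, rested on few reads: 26, 24 and 12 T>C reads with DMSO and 1, 6 and 0 with dCBP-30 (-3.30, SE 1.00, edgeR adjusted p = 0.00601). Its estimate was -5.25 without dCBP-30 replicate 2 and -2.74 without dCBP-30 replicate 3. None of these genes had overlapping groups.

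KIF11, the motor that pushes spindle poles apart (-1.60), KIF4A, a chromosome motor (-1.37), and TPX2, the activator of Aurora A on the spindle (-1.37), were called lower as well. TOP2A, the topoisomerase that untangles sister chromatids, held 3.43, 4.65 and 2.83 T>C RPM with DMSO and 5.14, 3.30 and 5.42 with dCBP-30, with overlap (0.34, SE 0.36, edgeR adjusted p = 0.498). ASPM, a spindle pole protein, held 10.6, 8.53 and 8.27 against 6.13, 6.92 and 7.14, without overlap in RPM, but was not called (-0.44, SE 0.27, edgeR adjusted p = 0.193). KIF2C, a microtubule depolymerase at centromeres, was at -0.80 and HMMR at -1.25, and neither was called.

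In the cytokinesis group, KIF23 and RACGAP1, which together form centralspindlin, ECT2, the exchange factor that it recruits, and PRC1, which bundles midzone microtubules, were all called lower. KIF23 held 9.20, 9.78 and 7.03 T>C RPM with DMSO at 24 h and 2.24, 4.40 and 1.45 with dCBP-30 (-1.69, SE 0.34, edgeR adjusted p = 4.30e-05). ECT2 held 3.56, 2.56 and 6.16 against 1.15, 0.330 and 1.88 (-1.86, SE 0.51, edgeR adjusted p = 0.00249; -2.45 without dCBP-30 replicate 3). PRC1 held 7.71, 11.9 and 11.6 against 3.56, 4.89 and 5.10 (-1.20, SE 0.28, edgeR adjusted p = 4.21e-04), in a UTR that shares 944 bases with another annotated gene on the same strand and 339 with PRC1-AS1 on the other.

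No treated library of these 3 genes reached its lowest vehicle library, and RACGAP1 was at -1.38 (edgeR adjusted p = 0.00305). ANLN held 5.25, 4.41 and 3.70 T>C RPM against 2.52, 5.27 and 1.99 (-0.45, SE 0.35, edgeR adjusted p = 0.322), where the treated library of replicate 2 was above every vehicle library. KIF20A, a motor that brings the passenger complex to the midzone, held 2.07, 3.10 and 1.09 against 1.70, 2.64 and 0.858 (-0.28, SE 0.50, edgeR adjusted p = 0.707), also overlapping, in a UTR that overlaps 74 bases of CDC23 on the other strand. KIF14 was at -0.96 and KIF20B at -1.87, and neither was called.

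The size of the decrease at 24 h depended on the library scaling. Without TMM factors 16 members were called lower and 1 higher, where 17.4% of all genes were lower and 5.95% higher. When libraries were scaled by their T>C reads 12 were lower and 1 higher, where 15.1% and 7.55% of all genes were. The median of all genes moved from -0.69 to -0.16 and -0.04 under these scalings. DESeq2 with size factors from T>C reads called 10 lower and 2 higher, where 14.1% and 10.3% of all genes were. The last of the 5 scalings was DESeq2 with size factors from total reads. The members' medians by DESeq2, -0.51 and -1.25, were close to those of edgeR scaled by the same reads, -0.61 and -1.25. Called lower under all 5 were 10 genes: CKS1B, FOXM1, BUB1, BUB1B, MAD2L1, CENPF, CENPM, DLGAP5, NUSAP1 and MKI67. The share of all genes called under all 5 was not counted. CCNB2 was called higher under 3 of 5 scalings and TOP2A under 1, and the sign of CCNB1, CDC20, UBE2C, PTTG1, PLK1, CENPA, ASPM, KIF20A, ANLN and, under 1 scaling or more, CENPE turned positive with another scaling.

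**Figure D4:**
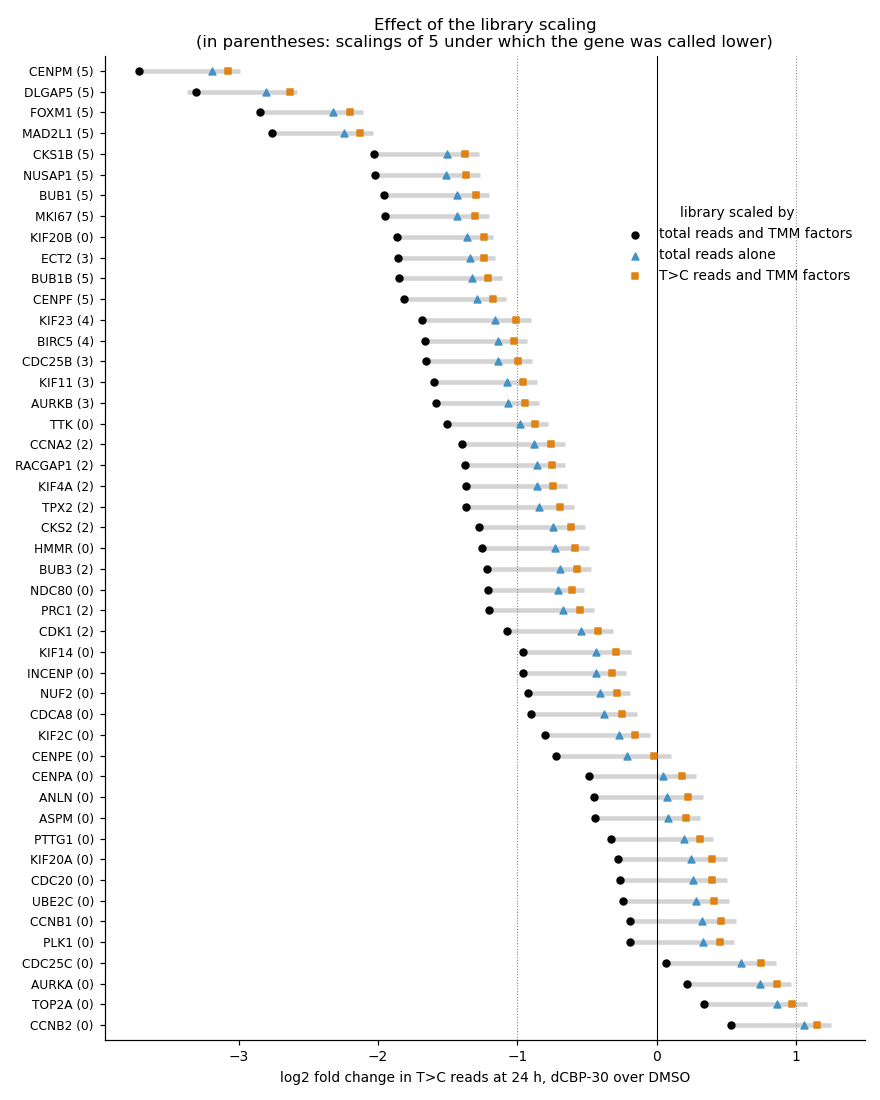
Log2 fold change in T>C reads at 24 h for the 47 tested mitosis genes under 3 library scalings (points) and the range over all 5 tried (grey bars), with the number of scalings of 5 that called the gene lower in parentheses. The order of genes is nearly kept while all move together: the 10 genes marked 5 stay beyond -1, and CCNB2 runs from 0.53 to 1.25.

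The change in T>C reads from one time point to the next was tested directly, as the difference of the dCBP-30 effects. Against 2 h, the effect at 24 h was lower for 18 of 47 members and higher for none, where 23% and 3.02% of all genes were, the members' median difference was -0.94, and at an unadjusted p under 0.05 edgeR had 20 lower and 0 higher. By group these were 7 cyclins and kinases, 4 kinetochore, 5 spindle and chromosome and 2 cytokinesis genes. Against 6 h, the effect at 24 h was lower for 13 members (background 9.13%) and higher for none (background 2.94%), with a median difference of -1.12 and, at the unadjusted p, 21 lower and 0 higher. DESeq2 called 18 and 14 lower and 0 higher in these comparisons, and scaling by T>C reads gave 7 lower with 1 higher and 8 lower with 0 higher. From 2 to 6 h CKS1B alone was called (-1.02), where 7.35% of all genes were lower and 0.684% higher, and its call was lost without replicate 3 of either 2 h group, replicate 3 of dCBP-30 at 6 h or replicate 2 of DMSO at 6 h. Each pair of these comparisons shares the libraries of 1 time point.

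Among the called differences, those of CENPM (-3.93 against 2 h and -3.73 against 6 h) and FOXM1 (-2.95 and -3.21) were the largest, followed by MAD2L1 against 2 h (-2.44) and NUSAP1 against 6 h (-2.64). For CKS1B the difference between 24 h and 2 h was -1.43, and that between 24 h and 6 h was not called. In DMSO cells alone, no member was called between 2 h and 6 h or 24 h in T>C reads, where 0% of all genes were called at 6 h, and at 24 h 2.52% were higher and 0.00992% lower. At an unadjusted p under 0.05 in edgeR, the vehicle at 6 h had 2 members lower and 1 higher, the vehicle at 24 h 6 higher and 3 lower. Total reads of DMSO cells gave no call either (backgrounds at 24 h 0.0326% lower and 0.0245% higher), and at the unadjusted p 15 were lower and 0 higher at 24 h, 2 lower and 1 higher at 6 h.

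Fewer mitosis genes were called in total reads than in T>C reads at every time point. In total reads no member was called at 2 h, where 1.25% of 12267 genes were lower and 0.457% higher, and edgeR had 6 lower and 2 higher at an unadjusted p under 0.05, with none called by DESeq2. BUB1 alone passed the adjusted p at 2 h, by less than 2-fold (-0.58, edgeR adjusted p = 0.0332). At 6 h none was called either, where 8.67% of all genes were lower and 7.47% higher, and DESeq2 called none. Yet 31 of the 47 members were above 0 at 6 h, with a median of 0.20 against 0.02 for all genes, and at the unadjusted p 12 were higher and 4 lower.

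The 9 members with higher total reads at an adjusted p under 0.05 at 6 h, all by less than 2-fold, were CDC25C (0.74), CENPA (0.64), INCENP (0.55), NUF2 (0.51), CDC20 (0.49), KIF11 (0.46), ASPM (0.42), FOXM1 (0.35) and KIF14 (0.34). CDC25C, a phosphatase that activates CDK1, held 17.7, 16.2 and 12.9 total RPM with DMSO at 6 h and 32.9, 26.0 and 19.3 with dCBP-30, without overlap. The 4 lower ones were CKS1B (-0.84), BUB1 (-0.77), BUB3 (-0.63) and CDC25B (-0.51). At this adjusted p alone, 18.8% of all genes were higher and 21.5% lower. The higher ones came from all 4 groups, and of the lower ones CKS1B, BUB1 and BUB3 also had lower T>C reads at an adjusted p under 0.05 at this time.

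At 24 h total reads were lower for 15 of the 47 members and higher for none, against 16.1% and 15% of all genes, with a median of -0.80 where that of all genes was 0.05. DESeq2 also called 15 lower and 0 higher, and at an unadjusted p under 0.05 edgeR had 31 lower and 1 higher, CDC20 (0.42, adjusted p = 0.00961). By group 5 of 18 cyclins and kinases, 5 of 11 kinetochore, 3 of 10 spindle and chromosome and 2 of 8 cytokinesis genes were called lower. Without TMM factors 3 members (6.38%), CKS1B, MAD2L1 and CENPM, were called lower, where 8.63% of all genes were lower.

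CENPM total reads were 129, 129 and 126 RPM with DMSO at 24 h and 21.2, 18.8 and 16.7 with dCBP-30 (log2 fold change -2.76, SE 0.11, edgeR adjusted p = 1.09e-16), and at 6 h they had been 117, 121 and 123 against 120, 123 and 122. CKS1B total reads were 391, 632 and 560 RPM against 140, 143 and 157 (-1.85, SE 0.19, edgeR adjusted p = 1.77e-08). MAD2L1 was at 46.5, 58.9 and 57.9 RPM against 16.3, 15.2 and 15.9 (-1.78, SE 0.16, edgeR adjusted p = 1.05e-09). In each of these genes the treated libraries were well below all vehicle libraries, and CENPM had not differed between the treatments at 6 h beyond the spread of its libraries.

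All 15 members lower in total reads at 24 h were also lower in T>C reads, which are part of the total reads. The 9 genes called in T>C reads alone were CDC25B, CKS2, FOXM1, CENPF, KIF4A, TPX2, DLGAP5, PRC1 and ECT2. PRC1 was the clearest of them: its total reads were 40.4, 50.2 and 41.8 RPM with DMSO and 43.8, 47.3 and 52.9 with dCBP-30 (0.12, SE 0.17, edgeR adjusted p = 0.542). FOXM1 total reads were 96.7, 82.8 and 92.1 RPM against 43.1, 50.2 and 45.4, just short of 2-fold in the fit (-0.97, SE 0.14, edgeR adjusted p = 1.87e-06).

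**Figure D5:**
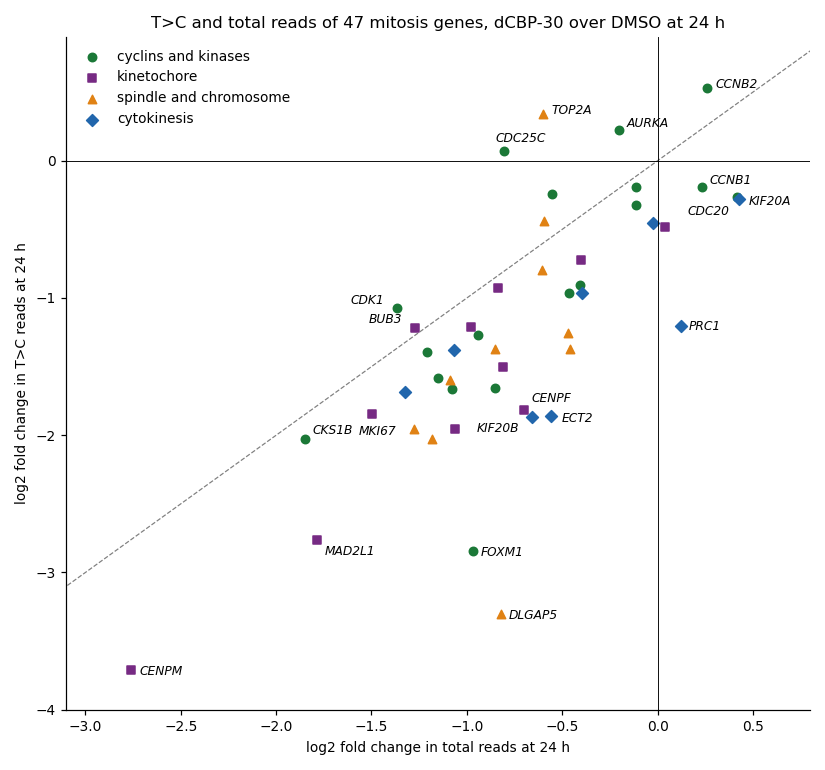
Log2 fold change at 24 h of dCBP-30 over DMSO in total reads (x axis) and T>C reads (y axis) for the 47 tested mitosis genes, with a marker for each group; the dashed line marks equal changes. Most genes lie below the line, with FOXM1, DLGAP5 and PRC1 furthest below it, and CDK1 and BUB3 lie close to it.

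From 6 h to 24 h the dCBP-30 effect on total reads was lower for 29 of the 47 members and higher for none, against 16.6% and 15.5% of all genes (0 higher at an unadjusted p under 0.05 in edgeR and 0 by DESeq2), a comparison added after the data had been seen. The count was 11 of 18 cyclins and kinases, 6 of 11 kinetochore, 8 of 10 spindle and chromosome and 4 of 8 cytokinesis genes, and the median difference was -0.88. Besides CENPM (-2.77), the largest differences were those of CDK1 (-1.75), NUSAP1 (-1.56), KIF11 (-1.55), CDC25C (-1.54) and MAD2L1 (-1.53). CDK1 total reads were 49.3, 62.8 and 51.1 RPM with DMSO at 6 h and 88.9, 76.2 and 47.4 with dCBP-30, and 26.9, 61.8 and 60.1 against 16.3, 20.7 and 20.7 at 24 h, so they lay partly above the vehicle at 6 h and below all its libraries at 24 h.

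The share of a gene's reads that carried T>C compares new RNA with the pool of the same gene and does not depend on the library scaling. It does depend on the labelling. Conversions per T>C read over all genes averaged 2.48 with DMSO and 1.47 with dCBP-30 at 24 h, and the part of this difference in the share was not tested. By limma the share was lower for no member at 2 h (background 4.34%; 0 lower and 2 higher at an unadjusted p under 0.05), for CKS1B at 6 h (-0.81 on the log2 scale, limma adjusted p = 0.0349, background 4.4%) and for 7 members at 24 h, against 21.3% of all genes, and higher for none (backgrounds 0.585%, 0.169% and 0.0992%). The 7 were DLGAP5 (-2.99), FOXM1 (-1.85), ECT2 (-1.56), PRC1 (-1.31), MAD2L1 (-1.01), CDC20 (-0.69) and MKI67 (-0.67), with limma adjusted p between 0.000801 for PRC1 and 0.0387 for ECT2. The members' median at 24 h was -0.51 where that of all genes was -0.69, and 16 members were lower and 1 higher at an unadjusted p under 0.05. The 24 h count was 2 with the replicate number as a block, 4 without dCBP-30 replicate 1 or 2, 2 without DMSO replicate 1 or 2 and 3 without DMSO replicate 3, and the 6 h call of CKS1B was lost in 12 of the 18 fits that left out 1 library.

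Genes of the same and related pathways outside the set were counted from 7 lists of 146 genes, chosen with earlier results of these data known. At 24 h 89 of 142 tested in T>C reads were called lower (62.7%) and none higher (1 at an unadjusted p under 0.05 in edgeR), against 31.2% and 2.18% of all genes, with a median of -1.85. This pooled count includes 26 DNA replication genes, all of them lower, so it depends on the choice of lists. Of the same 142 genes 3 were lower and none higher with 2 h of dCBP-30 (7.14% and 1.66% of all genes; 10 higher at the unadjusted p), and 2 were lower and 1 higher with 6 h (17.1% and 2.36%). Of 11 other cell cycle kinases and phosphatases 9 were lower, with CDC25A, the phosphatase that activates CDK2 and CDK1, going from a mean of 46.2 to 3.12 T>C RPM (-3.88). Of 34 other kinetochore and centromere genes 23 were lower, led by TRIP13, the ATPase that remodels the checkpoint protein MAD2 (-4.18). Condensin and cohesin had 11 of 17 lower, with CDCA5, which encodes sororin, at -3.85.

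Other spindle and cytokinesis genes were lower in 12 of 24, among them KIF15 (-2.63), while TROAP was at 0.80 without passing the test. The anaphase promoting complex subunits had 3 of 15 lower, ANAPC11 with the largest decrease (-1.82). Of the MuvB, DREAM and B-MYB list 5 of 15 were lower, and MYBL2, which encodes B-MYB, went from a mean of 17.6 to 0.782 T>C RPM (-4.48). All 26 DNA replication genes, most of which act in S phase, were lower, with a median of -3.30, and CDC6, a loader of the replicative helicase, was at -6.27. In total reads at 24 h 84 of the 146 were lower and none higher (5 at the unadjusted p), where 16.1% and 15% of all genes were, of which 25 of 26 DNA replication genes, 22 of 36 kinetochore genes and 1 of 16 anaphase promoting complex subunits.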

How the data were processed

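The submitters made the SLAM-seq libraries with a QuantSeq 3′ mRNA kit and sequenced single-end reads. The authors trimmed reads with TrimGalore, ran Slamdunk at its defaults on the 3′ UTRs of the hg38 genome, and deposited total and T>C read counts per transcript for each library. They report dropping reads of low quality or with several mapping places. Yet the deposited multimap counts with DMSO at 24 h were 9.89 to 12.3% of reads for cyclins and kinases and 4.43 to 6.04% for cytokinesis genes. They were 0.211 to 0.366% for kinetochore and 0.460 to 0.740% for spindle and chromosome genes. With dCBP-30 at 24 h they were 6.52 to 7.04% for cyclins and kinases, below every vehicle library, and 2.59 to 4.44% for cytokinesis genes. Kinetochore genes then had 0.067 to 0.225% and spindle and chromosome genes 0.1635 to 0.501%. The part of the multimap counts and of this difference between treatments in the results was not tested. Other deposited columns of rates were not tested. The processing notes name DESeq as well.

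Of 97466 transcript entries 91.4% were matched to a gene of GENCODE, giving 19593 genes, each taken as its transcript with the most reads, and 44 of the 48 members have several transcripts. The unmatched entries held 0.0789 to 0.199% of reads. Genes with low counts were removed with edgeR's filterByExpr (minimum count 10), on T>C reads for the T>C and share tests. Total reads and T>C reads were fitted over all 18 labelled libraries with edgeR 4.0.16 (quasi-likelihood, 6 groups, total reads with TMM factors for both) in R 4.3.3, and shares, with a pseudocount of 0.5 in the numerator and 1 in the denominator, on the log2 scale with limma 3.58.1. A call needed an adjusted p under 0.05 and, for comparisons of treatment, a change of more than 2-fold. Tables were built with Python 3.11.15 and pandas 2.3.3.

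The scripts were tested on simulated data. The members and the lists were chosen with earlier results of these data known. Per-library values are given for 12 members chosen by name and, in each group, for the 2 members with the largest decrease and the 2 with the smallest in T>C reads at 24 h among those whose higher group averaged 20 T>C reads or more. Members called at 2 or 6 h are named, other members are named with their fold change, and CDC25C total reads and the total reads of named members were added after their values were seen. Alternatives were other scalings, DESeq2 1.42.0, each time alone, filters, background subtraction, summed transcripts, the replicate number as a block and fits without each library in turn.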

Additional observations from a re-analysis of the deposited data

Results flagged for a closer look

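The following differences between time points in the effect of dCBP-30 on T>C reads passed an adjusted p under 0.05 in edgeR's quasi-likelihood test of the difference itself (log2 scale). Between 6 h and 2 h this was CKS1B (-1.02). Between 24 h and 2 h the cyclins and kinases were CCNA2 (-1.67), CDC25B (-1.49), CKS1B (-1.43), FOXM1 (-2.95), AURKB (-1.34), BIRC5 (-1.42) and CDCA8 (-1.23). The kinetochore genes were BUB1B (-1.54), MAD2L1 (-2.44), CENPF (-1.52) and CENPM (-3.93). The spindle and chromosome genes were KIF11 (-1.74), KIF2C (-1.11), TPX2 (-1.12), NUSAP1 (-1.77) and MKI67 (-1.72), and the cytokinesis genes were KIF23 (-1.54) and PRC1 (-1.22).

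Between 24 h and 6 h the differences were those of CCNA2 (-1.47), CDK1 (-1.59), FOXM1 (-3.21), AURKB (-1.67) and BIRC5 (-1.54), of BUB1B (-1.58), MAD2L1 (-1.50) and CENPM (-3.73), of KIF11 (-1.84), NUSAP1 (-2.64) and MKI67 (-1.52), and of PRC1 (-1.13) and RACGAP1 (-1.55). In total reads the effect was lower at 24 h than at 6 h for 29 of 47 members, where 16.6% of all genes were.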

How the results depend on the processing

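Counts of members called lower in T>C reads changed by over 1.5 times as follows, with the main value first. At 2 h, 1 became 0 without TMM factors, with each time point alone, without a filter, with background subtracted, with reads summed over transcripts and with the replicate block. At 6 h, 3 became 1 when scaled by T>C reads, without TMM factors and by DESeq2 with size factors from T>C reads, and the members' median turned from -0.07 to 0.25, 0.25 and 0.31. At 24 h, 24 became 12 with 1 higher when scaled by T>C reads, 16 with 1 higher without TMM factors, and 10 with 2 higher (CCNB2 and TOP2A) by DESeq2 with size factors from T>C reads. The difference between 6 and 2 h went from 1 to 0 under these 3 scalings, that between 24 and 2 h from 18 to 7 with 1 higher, to 10, and to 6 with 1 higher, and that between 24 and 6 h from 13 to 8 when scaled by T>C reads. The DESeq2 values with size factors from T>C reads for these differences were added after the data had been seen. For 24 against 2 h, 9.97%, 13.1% and 9.88% of all genes were lower under the 3 scalings, in that order. In total reads without TMM factors, 1 member was higher at 6 h and 3 instead of 15 were lower at 24 h. With the replicate block the share gave 0 at 6 h and 2 at 24 h. The cause was not tested.

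Leaving out 1 library gave a count of 0 to 1 at 2 h, of 3 at 6 h and of 24 to 25 at 24 h for lower T>C reads, differences of 0 to 1 (6 against 2 h), 15 to 20 (24 against 2 h) and 9 to 14 (24 against 6 h), 14 to 16 lower in total reads at 24 h and 22 to 32 from 6 to 24 h, and for the share 0 to 2 at 6 h, 2 to 8 lower at 24 h and 0 to 1 higher. The 6 against 2 h call of CKS1B was lost without replicate 3 of either 2 h group, replicate 3 of dCBP-30 at 6 h or replicate 2 of DMSO at 6 h. The share at 24 h fell to 4 without dCBP-30 replicate 1 or 2, to 2 without DMSO replicate 1 or 2, and to 3 without DMSO replicate 3, and 1 member was higher without dCBP-30 replicate 3. Replicate numbers did not pair the libraries, with correlations of deviations at most 0.0201 in T>C reads and 0.019 in total reads. The block left 24 lower in T>C reads and 16 in total reads at 24 h. Low T>C reads limit TTK, NDC80, CENPE, KIF20B and DLGAP5. The paper describes labelled Drosophila RNA mixed into the MM1.S RNA as a spike-in, but no spike-in was used here to set a scale.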
